A study of Mus musculus with 7 samples.

Results

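The genes described here are 6 classic X-linked enzyme and disease genes, Hprt, Pgk1, G6pdx, Pdha1, Gla and Fmr1, taken by name out of the 22556 genes counted in this series, 908 of which lie on the X chromosome. All 6 passed the filter on low total counts. Of the 6, 5 held enough fragments that could be assigned to a parental allele, 5 were listed in the deposited allelic ratio table of iXist-ChrX-Cast, 3 (Hprt, G6pdx and Fmr1) were listed in that of iXist-ChrX-Dom as well, and Gla was listed in neither. The data are chromatin-associated RNA-seq (ChrRNA-seq), in which RNA still attached to chromatin is sequenced so that introns and nascent transcripts are counted together with exons, from female F1 mouse embryonic stem cells (mESCs) of a Dom/129S x Cast cross. In iXist-ChrX-Dom (n = 4 libraries) a TetOn promoter replaced the endogenous Xist promoter on the Dom/129S X chromosome, and in iXist-ChrX-Cast (n = 3) the same was done on the Cast X chromosome, so that doxycycline makes the Dom X the inactive X (Xi) in the first line and the Cast X the Xi in the second. Both lines received 1 µg/mL doxycycline for 10 days while kept as undifferentiated mESCs, and no uninduced library is analysed here. By the study's account each line is 1 clone, so a difference between the lines cannot be told apart from a difference between clones. The deposited counts of iXist-ChrX-Cast replicates 1 and 2 carry another clone name than their labels and replicate 3. For replicates 3 and 4 of iXist-ChrX-Dom the description reads day 1, whereas the title reads day 10, which was followed here. According to the study, the iXist-ChrX-Dom X chromosomes have recombined, and the part telomeric of Xist carries no allelic information in that line, which applies to Pgk1, Gla and Pdha1.

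These genes carry much of the history of X inactivation. Xist RNA coats the chromosome it is transcribed from and, with the proteins it recruits, silences most genes on it, so that a female cell uses 1 copy of most X-linked genes. Protein variants of glucose-6-phosphate dehydrogenase and the loss of hypoxanthine phosphoribosyltransferase in some cells of carriers were early evidence that a female body is a mosaic of cells with one or the other X silenced, and Hprt, Pgk1 and G6pdx served for decades as model genes because every cell transcribes them from promoters rich in CpG dinucleotides. Hprt recycles hypoxanthine and guanine to nucleotides, Pgk1 makes ATP in glycolysis, G6pdx opens the pentose phosphate pathway and supplies NADPH, Pdha1 encodes the E1 alpha subunit that lets pyruvate enter the citric acid cycle, and Gla encodes the lysosomal alpha-galactosidase A. Fmr1 encodes FMRP, an RNA-binding protein that restrains translation and whose human counterpart is silenced in fragile X syndrome.

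Promoter sequences are shown for 4 of the genes, Hprt and G6pdx because their allelic ratios differed between the lines in opposite directions, and Pgk1 and Fmr1 because they held the lowest and the highest ratio of these genes in iXist-ChrX-Cast. Each is the RefSeq window of 300 bases, from 250 bases before to 50 after the transcript start, on GRCm38.p6 (the assembly of the mm10 build that the files use), written 5′ to 3′ on the strand of the gene. All 6 genes matched an entry. Capitals mark the GC box, searched as GGGCGG on both strands, where CCGCCC is the match on the other strand and overlapping matches were counted.
Hprt, chrX:52987828-52988127, plus strand: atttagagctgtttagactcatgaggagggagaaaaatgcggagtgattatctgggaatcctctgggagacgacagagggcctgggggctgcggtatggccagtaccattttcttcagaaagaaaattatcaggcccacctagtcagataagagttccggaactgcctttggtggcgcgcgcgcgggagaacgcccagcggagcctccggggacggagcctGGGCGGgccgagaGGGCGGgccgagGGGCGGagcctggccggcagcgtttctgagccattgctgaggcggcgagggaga
G6pdx, chrX:74428831-74429130, minus strand: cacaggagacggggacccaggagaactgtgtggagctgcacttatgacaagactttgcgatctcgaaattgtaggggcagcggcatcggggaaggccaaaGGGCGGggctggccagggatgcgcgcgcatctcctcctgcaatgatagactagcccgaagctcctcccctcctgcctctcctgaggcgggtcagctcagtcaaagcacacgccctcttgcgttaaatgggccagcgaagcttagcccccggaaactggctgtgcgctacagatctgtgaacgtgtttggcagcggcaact
Pgk1, chrX:106186850-106187149, plus strand: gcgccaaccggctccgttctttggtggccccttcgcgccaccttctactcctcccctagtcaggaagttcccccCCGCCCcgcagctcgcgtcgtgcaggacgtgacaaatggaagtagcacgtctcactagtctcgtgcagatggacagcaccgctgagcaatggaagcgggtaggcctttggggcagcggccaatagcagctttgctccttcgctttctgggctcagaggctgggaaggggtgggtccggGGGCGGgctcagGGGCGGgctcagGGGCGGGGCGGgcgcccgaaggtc
Fmr1, chrX:68678291-68678590, plus strand: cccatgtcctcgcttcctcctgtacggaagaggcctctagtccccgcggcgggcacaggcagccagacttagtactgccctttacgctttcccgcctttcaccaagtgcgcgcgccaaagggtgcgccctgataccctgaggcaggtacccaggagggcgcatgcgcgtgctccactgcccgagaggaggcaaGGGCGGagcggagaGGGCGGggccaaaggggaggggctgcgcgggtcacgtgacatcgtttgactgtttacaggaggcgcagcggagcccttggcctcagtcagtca
Hprt held 3 GC boxes, Pgk1 held 5, Fmr1 and Gla 2 each, G6pdx 1 and Pdha1 none. A GC box was present in 35.9% of 27025 promoters of the same length and in 58% of the 433 X-linked promoters whose genes were tested here. None of the 6 windows held TATAAA on either strand, which 14.2% of all promoters did. The windows held 17 (Gla) to 24 (Pgk1 and Fmr1) CpG dinucleotides against a median of 7 over all promoters and 15 over the promoters of the tested X-linked genes. In the count tables G6pdx starts 281 bases and Pdha1 94 bases away from the RefSeq start, so their windows lie beside the start that was counted.

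The libraries held 14877384 to 24309806 fragments in genes, of which 44.2% to 46.4% could be assigned to an allele and 4.21% to 4.76% came from the X chromosome. Xist itself came almost entirely from the promoter-swapped chromosome, at 99.9% of its allelic fragments in all 4 iXist-ChrX-Dom libraries and 94% to 94.7% in the iXist-ChrX-Cast libraries. Markers of undifferentiated mESCs summed to 1495 to 1833 CPM (fragments scaled to a common library size with TMM factors) in iXist-ChrX-Dom, compared with 1741 to 1920 in iXist-ChrX-Cast, and 9 of 10 reached 1 CPM, with Sox2 listed at 0 in every library and only Tdgf1 of the list passing the test between the lines. Markers of feeder fibroblasts, the cells on which mESCs grow and which were removed by pre-plating, summed to 95.2 to 141 CPM in iXist-ChrX-Dom, beside 92.4 to 123 CPM in iXist-ChrX-Cast, of which Col5a2 and Fbn1 gave most, none of the 10 passed the test between the lines, and no marker was at 0 in every library. Markers of neural cells summed to 33.7 to 56.3 CPM in the iXist-ChrX-Dom libraries and to 28.6 to 32.6 CPM in those of iXist-ChrX-Cast, without overlap, with 3 of 6 reaching 1 CPM, Sox1 listed at 0 and none passing the test between the lines. Why Sox2 and Sox1 held no counted fragments was not tested, so these values are not read as absence of their RNA. The part of these marker differences in the results below was not tested. Over autosomes outside chromosomes 1, 5, 8, 12 and 14, the median gene gave 46.4% to 47.0% of its allelic fragments to Cast. This small autosomal shift toward Dom adds to the Xi share in iXist-ChrX-Dom and takes from it in iXist-ChrX-Cast.

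On the Xi, each of these genes that could be measured was far below its copy on the active X (Xa), and none was at 0. The allelic ratio is the Xi share of allelic fragments, Xi / (Xi + Xa), where 0.5 is equal expression of both alleles and 0 is a silent Xi copy. In iXist-ChrX-Dom the order from the lowest was G6pdx (0.0499 ± 0.0144, SD, n = 4), Hprt (0.167 ± 0.0178) and Fmr1 (0.171 ± 0.0226), against a median of 0.148 over the 246 genes of the table. G6pdx was below the other two in 4 of 4 libraries without overlap, whereas Hprt and Fmr1 overlapped and changed order between libraries. Genes telomeric of Xist carry no allelic information in that line, by the study's account. They still had a median Dom share of 2.61% there, with quartiles of 1.28% and 4.69%. The part of such fragments in the Xi counts of G6pdx was not tested. In iXist-ChrX-Cast the order was Pgk1 (0.0406 ± 0.00757, n = 3), Hprt (0.0755 ± 0.0207), Pdha1 (0.101 ± 0.0134), G6pdx (0.122 ± 0.0544) and Fmr1 (0.215 ± 0.0123), against a median of 0.122 over 399 genes. Neighbours in that order did not overlap, except Pdha1 and G6pdx, which did, and the gap between Hprt and Pdha1 was smaller than the counting intervals of single libraries. In bulk RNA a low Xi output in every cell and a mixture of cells with a silent and an active Xi copy cannot be told apart. Pgk1 was lower than all but 11.8% of the genes of its table, and Fmr1 was higher than 78.4% of them. By their means Hprt and G6pdx changed places between the lines, but in iXist-ChrX-Cast their libraries overlapped, and in replicate 2 Hprt (0.0894) was above G6pdx (0.0725). The mean ratio of G6pdx was above 10.2% of the table in iXist-ChrX-Dom, compared with 49.9% in iXist-ChrX-Cast, and that of Hprt above 54.9% and 30.3%.

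**Figure D1:**
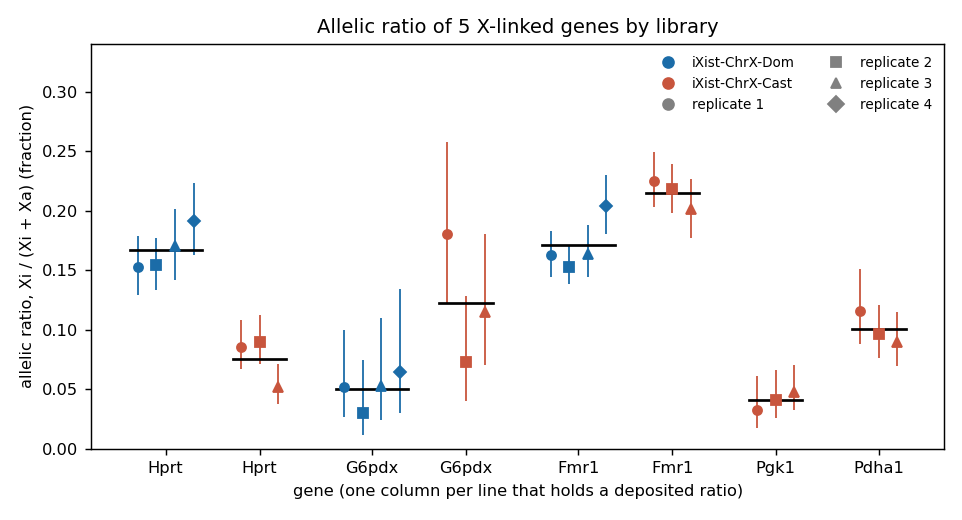
Allelic ratio (y axis, fraction of allelic fragments from the Xi) of Hprt, G6pdx, Fmr1, Pgk1 and Pdha1, with iXist-ChrX-Dom in blue and iXist-ChrX-Cast in red, one symbol shape per replicate number, Wilson 95% intervals as vertical bars and the line mean as a black bar. Hprt is higher in blue, at 0.153 to 0.191 against 0.0517 to 0.0894, and G6pdx is higher in red, at 0.0725 to 0.18 against 0.0301 to 0.0645, with wide intervals.

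Tested allele against allele within a line (edgeR quasi-likelihood test with the library as a block, Benjamini-Hochberg adjustment over all genes), the Xi copy was lower for 3 of 3 genes in iXist-ChrX-Dom and for 5 of 5 in iXist-ChrX-Cast. The same call was made for 22.6% of 12439 genes in iXist-ChrX-Dom and for 37.6% of 12292 genes in iXist-ChrX-Cast, and for 96% of the 249 X-linked genes centromeric of Xist and 97.3% of 415 X-linked genes respectively, so the sizes say more than the calls. In iXist-ChrX-Dom the Xi copy differed from the Xa copy by -2.34 ± 0.07 (log2, SE) for Hprt, 5.05-fold lower, by -2.30 ± 0.07 for Fmr1, 4.92-fold lower, and by -4.26 ± 0.20 for G6pdx, 19.1-fold lower. The median X-linked gene centromeric of Xist differed by -2.55 there, so G6pdx lay beyond the lower quartile of -3.55 and the other two above the median. In iXist-ChrX-Cast the folds were 22.7 for Pgk1, 12.1 for Hprt, 9.1 for Pdha1, 7.26 for G6pdx and 3.65 for Fmr1, against a median log2 difference of -2.84 over X-linked genes.

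Hprt (chromosome X, 52988077 to 53021660 on mm10, plus strand, 50.47 Mb centromeric of Xist) had the smallest adjusted p of these genes for a difference in ratio between the lines. Its allelic ratio was 0.153, 0.154, 0.17 and 0.191 in the 4 iXist-ChrX-Dom libraries (replicates 1 to 4, in that order here and below), against 0.0855, 0.0894 and 0.0517 in the 3 iXist-ChrX-Cast libraries. Every iXist-ChrX-Dom library was above every iXist-ChrX-Cast library, a separation that 44.7% of the 235 genes shared by both tables showed in one direction or the other. These ratios rest on 619 to 1040 allelic fragments in each iXist-ChrX-Dom library, 105 to 160 of them from the Xi, and on 677 to 761 in each iXist-ChrX-Cast library, 35 to 68 of them from the Xi. The Wilson 95% interval of the lowest iXist-ChrX-Dom library, 0.129 to 0.179, lay above that of the highest iXist-ChrX-Cast library, 0.0711 to 0.112. On the log2-odds scale the ratio was higher by 1.22 ± 0.23 (SE) in iXist-ChrX-Dom (limma, adjusted p = 0.00672), and 33.2% of the 235 genes passed the same test, 45 of these 78 with the higher ratio in iXist-ChrX-Dom. Correcting each library for its autosomal allele shift turned that split to 36 of 106 and left Hprt higher in iXist-ChrX-Dom by 0.85 (limma, adjusted p = 0.025). With the replicate number as a block the difference was 1.14 and no longer passed (limma, adjusted p = 0.0665). Within replicates 1 and 2 alone the ratio was 0.0658 higher in iXist-ChrX-Dom, and within replicates 3 and 4, where iXist-ChrX-Cast has 1 library, it was 0.129 higher. Of the allelic fragments of feeder fibroblast markers, 68.8% to 79.1% were Dom over the libraries of both lines. A Dom fragment counts as Xi in iXist-ChrX-Dom and as Xa in iXist-ChrX-Cast. The part of feeder RNA in the Hprt difference was not tested.

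The alleles of Hprt were also compared by level. The Xi copy gave 5.39, 6.5, 5.6 and 6.38 CPM in iXist-ChrX-Dom, where it is the Dom allele, and 4.22, 3.47 and 1.75 CPM in iXist-ChrX-Cast, where it is the Cast allele. The Xa copy averaged 30 ± 4.03 CPM in iXist-ChrX-Dom, beside 37.5 ± 6.78 CPM in iXist-ChrX-Cast, and the libraries of the lines overlapped. Total Hprt was 84.2, 91.7, 77.8 and 74.9 CPM against 120, 98.1 and 81.2 CPM, also overlapping, and its total difference did not pass the test (log2 difference -0.28 ± 0.14, edgeR, adjusted p = 0.331). The nearest genes that both tables hold are Phf6, 31.1 kb to the centromeric side, and C430049B03Rik, a noncoding transcript 31.5 kb to the telomeric side. Phf6, a chromatin-associated protein gene mutated in an X-linked intellectual disability syndrome, had ratios of 0.072 ± 0.0136 and 0.0502 ± 0.0127, a difference that did not pass (adjusted p = 0.132, limma). C430049B03Rik went with Hprt, at 0.26 ± 0.0822 in iXist-ChrX-Dom, compared with 0.0336 ± 0.017 in iXist-ChrX-Cast (limma, adjusted p = 0.00204), on 29 to 71 allelic fragments per library.

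G6pdx (chromosome X, 74409485 to 74429161, minus strand, 29.05 Mb centromeric of Xist) went the other way. Its ratio was 0.0523, 0.0301, 0.0526 and 0.0645 in iXist-ChrX-Dom, beside 0.18, 0.0725 and 0.115 in iXist-ChrX-Cast. The lines did not overlap, but the Xi counts behind them were only 8, 4, 6 and 6 fragments out of 93 to 153 in iXist-ChrX-Dom and 22, 10 and 15 out of 122 to 138 in iXist-ChrX-Cast. The highest iXist-ChrX-Dom library had a Wilson 95% interval of 0.0299 to 0.134, which covers the lowest iXist-ChrX-Cast value. The difference was -1.21 ± 0.37 on the log2-odds scale (limma, adjusted p = 0.0432). It was -1.59 after the correction for the autosomal allele shift (limma, adjusted p = 0.0134). The uncorrected call was lost when any single library other than iXist-ChrX-Cast replicate 2 was left out, with adjusted p of 0.0542 to 0.123 (limma), and it was lost within replicates 1 and 2 alone (limma, adjusted p = 0.143), while the direction held in each of these fits. As a plain difference of ratios, iXist-ChrX-Dom minus iXist-ChrX-Cast, it was -0.0852 in the first sample set (replicates 1 and 2) and -0.0559 in the second.

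The gene whose body overlaps G6pdx on the opposite strand, Ikbkg, which encodes the regulatory subunit of the kinase that activates NF-κB, had the same direction with many more fragments. Its ratio was 0.0641 ± 0.0176 in iXist-ChrX-Dom, compared with 0.149 ± 0.0232 in iXist-ChrX-Cast, on 269 to 505 allelic fragments per library, a difference of -1.26 ± 0.26 on the log2-odds scale (limma, adjusted p = 0.00856). The counting used strand, so fragments of the G6pdx and Ikbkg strands were counted apart. Gab3, the next gene of the tables on the telomeric side, 559 kb away, had 0.301 ± 0.119 against 0.0799 ± 0.041, the opposite direction, on 19 to 39 allelic fragments per library (limma, adjusted p = 0.017). Total G6pdx was 22.4, 19.8, 19 and 17.5 CPM in iXist-ChrX-Dom, beside 26.4, 26.9 and 23.6 CPM in iXist-ChrX-Cast. The lines did not overlap, as was so for 16% of all genes tested, and the difference of -0.38 ± 0.13 did not pass (edgeR, adjusted p = 0.154).

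Fmr1 (chromosome X, 68678540 to 68717961, plus strand, 34.78 Mb centromeric of Xist) was the most deeply covered of the genes, with 990 to 1894 allelic fragments per library, and had the highest mean ratio of them in both lines. The ratio was 0.163, 0.153, 0.164 and 0.204 in iXist-ChrX-Dom, compared with 0.225, 0.218 and 0.201 in iXist-ChrX-Cast. Replicate 4 of iXist-ChrX-Dom fell within the range of iXist-ChrX-Cast, and the other 3 were below it. The difference of -0.39 ± 0.17 on the log2-odds scale did not pass (limma, adjusted p = 0.122). It passed when each library was corrected for its autosomal allele shift (-0.77, limma, adjusted p = 0.0132) and with edgeR on the allelic counts (-0.42, adjusted p = 0.0482). Its neighbour Fmr1nb, 43.9 kb to the telomeric side, was far lower than Fmr1 in both lines, at 0.0645 ± 0.0202 in iXist-ChrX-Dom, beside 0.0237 ± 0.0128 in iXist-ChrX-Cast on 398 to 652 allelic fragments, and its ratio was higher in iXist-ChrX-Dom (limma, adjusted p = 0.031).

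Replicate 4 of iXist-ChrX-Dom had the highest ratio of its line for Hprt, G6pdx and Fmr1, and also the highest median over its whole table, 0.181 against 0.128 to 0.146 in the other 3 libraries. Replicates 3 and 4, whose description and title differ in time point, had medians of 0.146 and 0.181, beside 0.136 and 0.128 in replicates 1 and 2. The part of this label conflict in the ratios was not tested. Replicate 3 of iXist-ChrX-Cast was lowest for Hprt, Pdha1 and Fmr1, and its table median of 0.111 was below the 0.125 and 0.135 of the other two, whereas Pgk1 was highest in that library and G6pdx intermediate.

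**Figure D2:**
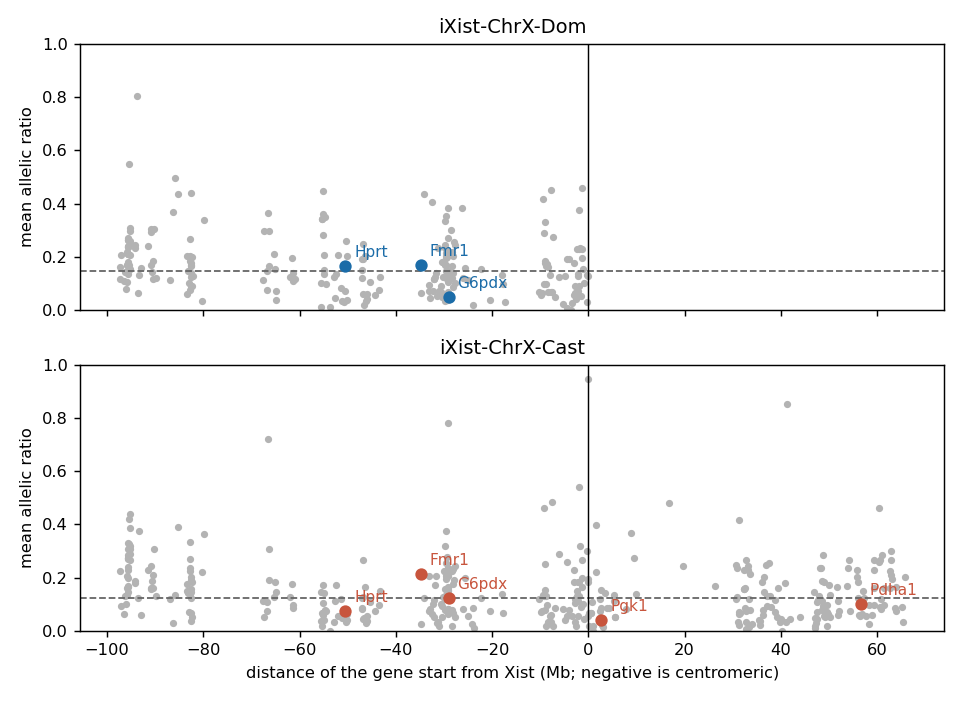
Mean allelic ratio (y axis, fraction) of each gene in the deposited tables against the distance of its start from Xist (x axis, Mb, negative is centromeric), with iXist-ChrX-Dom above and iXist-ChrX-Cast below, the table median as a dashed line and the genes described here coloured and named. G6pdx sits near the floor at 0.0499 in iXist-ChrX-Dom and at the median in iXist-ChrX-Cast, Fmr1 is above the median in both, and Pgk1, 2.73 Mb from Xist, is at 0.0406 in iXist-ChrX-Cast.

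Pgk1 (chromosome X, 106187099 to 106203699, plus strand, 2.73 Mb telomeric of Xist) had a ratio in iXist-ChrX-Cast of 0.0327, 0.0413 and 0.0478, the lowest of the genes described here. The values rest on 9, 16 and 24 Xi fragments out of 275, 387 and 502, and their Wilson 95% intervals together spanned 0.0173 to 0.0702. The nearest genes of the table were Atp7a, the copper transporter gene of Menkes disease, 58.9 kb to the centromeric side with 0.0868 ± 0.018, and Taf9b, a general transcription factor subunit 3.17 kb to the telomeric side with 0.0215 ± 0.0372 on only 31 to 42 fragments. Total Pgk1 was 54.1, 58.3, 49.1 and 39.8 CPM in iXist-ChrX-Dom, compared with 58.8, 74.5 and 60 CPM in iXist-ChrX-Cast. The lines did not overlap, by a narrow margin, and the difference of -0.36 ± 0.15 did not pass (edgeR, adjusted p = 0.241). With the sample set (replicates 1 and 2 against 3 and 4) as a covariate Pgk1 and G6pdx did pass (edgeR, adjusted p = 0.0428 and 0.028).

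Pdha1 (chromosome X, 160122218 to 160138336, minus strand, 56.66 Mb telomeric of Xist) was the only gene of the 6 whose total level passed the test between the lines, against 1.72% of 15186 genes called lower in iXist-ChrX-Dom and 6.09% of 542 X-linked genes. It gave 79.7, 67.9, 85.4 and 79.6 CPM in iXist-ChrX-Dom, beside 113, 137 and 115 CPM in iXist-ChrX-Cast. Every iXist-ChrX-Dom library was below every iXist-ChrX-Cast library, and in bulk RNA fewer cells with a high level and less RNA per cell cannot be told apart. The log2 difference of Pdha1 was -0.64 ± 0.11, or 1.56-fold lower in iXist-ChrX-Dom (edgeR, adjusted p = 0.0216). The call was lost with adjusted p of 0.0568 to 0.161 (edgeR) when any library but iXist-ChrX-Cast replicate 3 was left out, with log2 differences between -0.69 and -0.55, and it held at -0.76 within replicates 1 and 2 (edgeR, adjusted p = 0.00333) and at -0.65 with the replicate block (edgeR, adjusted p = 0.000312). In the second sample set the log2 ratio of the mean CPM was -0.47. In iXist-ChrX-Cast the allelic ratio of Pdha1 was 0.116, 0.0962 and 0.0899, on 398, 665 and 601 allelic fragments. Map3k15, a kinase gene on the opposite strand whose end overlaps Pdha1, had 0.057 ± 0.0218 there, below Pdha1 in its mean.

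Gla (chromosome X, 134588168 to 134601005, minus strand, 31.13 Mb telomeric of Xist) could be measured only as a total. It gave 13.0, 12.8, 13.9 and 10.7 CPM in iXist-ChrX-Dom, compared with 11.4, 11.8 and 13.9 CPM in iXist-ChrX-Cast, overlapping throughout, with a log2 difference of 0.03 ± 0.15 (edgeR, adjusted p = 0.954). Between 162 and 316 fragments per library fell on Gla, but only 0 to 3 of them could be assigned to an allele, so that no Xi share is given. Its neighbour Hnrnph2, an RNA-binding protein gene that starts 0.28 kb away, had a ratio of 0.0314 ± 0.00748 in iXist-ChrX-Cast on 252 to 381 fragments, and Drp2, 132 kb to the centromeric side, had 0.125 ± 0.0839 on 9 to 13. In iXist-ChrX-Dom 84.35% of the allelic fragments of Hnrnph2 were assigned to Dom, against a median of 2.61% over genes telomeric of Xist. The allele assignment of Hnrnph2 was not tested, and its ratio may not measure silencing.

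The levels of the 6 genes relative to each other were compared per kilobase of the counted span, introns included. In iXist-ChrX-Dom the order from the lowest was Gla (0.982 ± 0.108 CPM per kb), G6pdx (1.00 ± 0.104), Hprt (2.45 ± 0.223), Pgk1 (3.03 ± 0.481), Pdha1 (4.85 ± 0.458) and Fmr1 (6.32 ± 0.813). Gla and G6pdx overlapped, as did Hprt and Pgk1, and the other neighbours did not. In iXist-ChrX-Cast the order was Gla (0.963 ± 0.103), G6pdx (1.3 ± 0.0905), Hprt (2.97 ± 0.572), Pgk1 (3.88 ± 0.525), Fmr1 (7.45 ± 1.85) and Pdha1 (7.55 ± 0.832), with overlap between Hprt and Pgk1 and between Fmr1 and Pdha1. Over all 7 libraries Fmr1 and Pdha1 were above 93.3% and 92.1% of the 15186 genes tested, and Gla was above 54.6%. Fmr1 gave 252, 292, 237 and 216 CPM in iXist-ChrX-Dom, beside 344, 328 and 210 CPM in iXist-ChrX-Cast, where replicate 3 was the lowest of all 7 libraries (log2 difference -0.24 ± 0.17, edgeR, adjusted p = 0.526). Its direction differed between the sample sets, with a log2 ratio of the mean CPM of -0.30 in the first and 0.11 in the second. The total differences of Hprt, Pgk1, G6pdx, Pdha1 and Fmr1 were all negative, and the median X-linked gene differed by -0.12 and the median of all genes by 0.00.

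**Figure D3:**
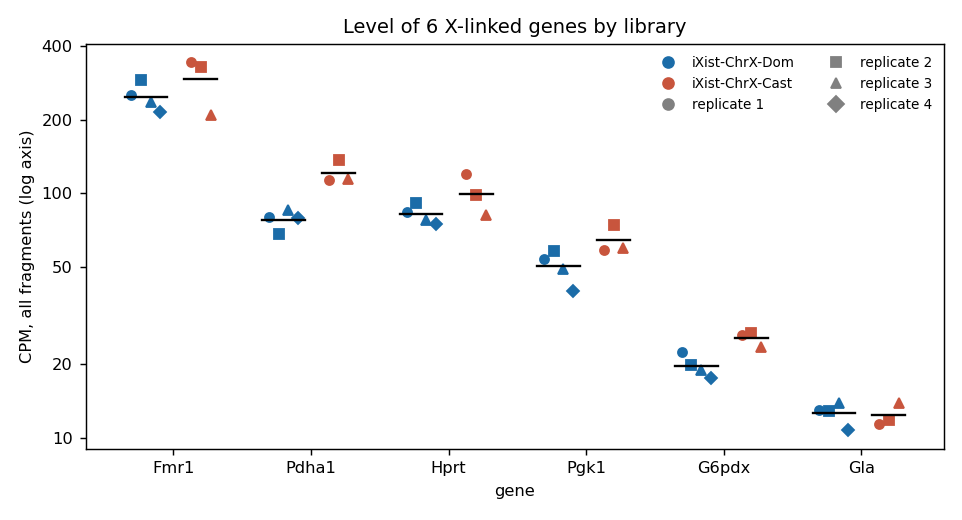
Level of the 6 genes (y axis, CPM of all fragments, log axis) in each library, with iXist-ChrX-Dom in blue and iXist-ChrX-Cast in red, one symbol shape per replicate number and the line mean as a black bar. Pdha1 separates the lines most clearly, at 67.9 to 85.4 against 113 to 137 CPM, whereas the libraries of the lines overlap for Fmr1, Hprt and Gla.

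Counted by allele, the higher allele was the one on the Xa in both lines for Hprt, G6pdx and Fmr1. For Pgk1 and Pdha1 this can be said of iXist-ChrX-Cast only. Fragments assigned to Cast were higher in iXist-ChrX-Dom for 5 of 5 genes, a call made for 8.25% of 12181 genes and for 95.7% of 421 X-linked genes. Cast is the Xa there for Hprt, G6pdx and Fmr1, whereas Cast fragments of Pgk1 and Pdha1 can come from both X chromosomes of that line. The differences were 1.72 ± 0.22 for Fmr1, 2.59 ± 0.17 for Pdha1, 2.60 ± 0.31 for G6pdx, 3.28 ± 0.24 for Hprt and 4.19 ± 0.21 for Pgk1 (log2 ± SE, edgeR), beside an X-linked median of 2.69. Fragments assigned to Dom were lower in iXist-ChrX-Dom for 5 of 5 genes, a call made for 4.01% of 12545 genes and for 94.9% of 414 X-linked genes. For the 3 genes that carry allelic information in both lines the differences were -2.44 ± 0.17 for Fmr1, -2.65 ± 0.15 for Hprt and -4.49 ± 0.26 for G6pdx. For Pgk1 (-3.75 ± 0.21) and Pdha1 (-5.24 ± 0.18) iXist-ChrX-Dom carries, by the study's account, no allelic information. Their differences therefore do not measure silencing of a Dom allele. The active copy of Pdha1 gave 27.6 ± 2.94 CPM in iXist-ChrX-Cast, and Cast-assigned fragments of Pdha1 gave 18.5 ± 2.47 CPM in iXist-ChrX-Dom without overlap, where any Xi output would be counted as Cast as well.

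**Figure D4:**
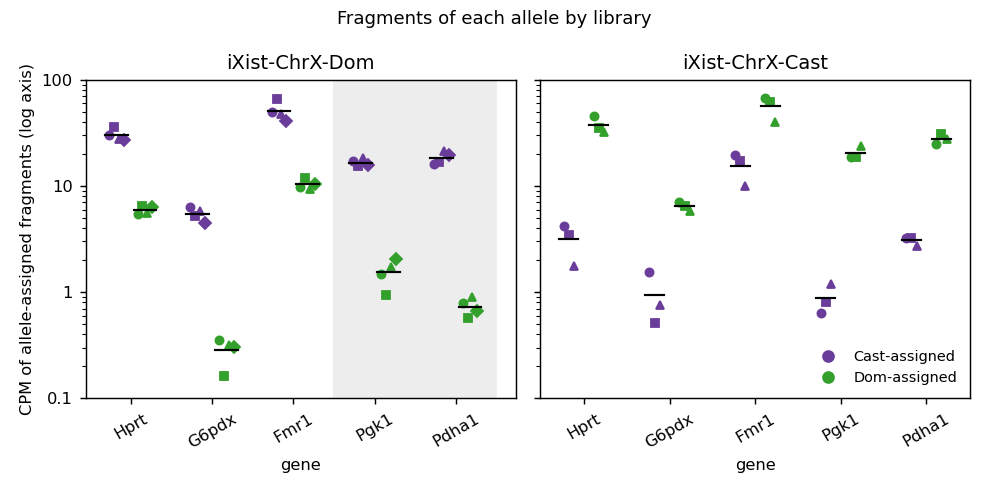
Fragments assigned to the Cast allele (purple) and to the Dom allele (green) for 5 genes (y axis, CPM, log axis), one symbol per library shaped by replicate number and black bars for the mean, with iXist-ChrX-Dom at left (grey shading over the 2 genes telomeric of Xist) and iXist-ChrX-Cast at right. The higher allele is Cast at left and Dom at right for every gene, and the gap is narrowest for Fmr1, at 15.5 against 56.1 CPM in iXist-ChrX-Cast. In the shaded part Cast fragments can come from both X chromosomes.

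Pgk1 and Pdha1 lie where, by the study's account, iXist-ChrX-Dom carries no allelic information, and nearly all their fragments there were Cast, but some were assigned to Dom. For Pgk1 they were 34 of 421, 23 of 404, 32 of 373 and 40 of 346 allelic fragments, or 8.08%, 5.69%, 8.58% and 11.6%, with Wilson 95% intervals spanning 3.82% to 15.4%. For Pdha1 they were 18, 14, 17 and 13 fragments, or 4.68%, 3.26%, 4.07% and 3.26%. The 144 genes telomeric of Xist with at least 20 allelic fragments in each library had a median Dom share of 2.61%, with quartiles of 1.28% and 4.69%, against 14.9% over 234 genes on the centromeric side. Pgk1, with a mean of 8.48 ± 2.41%, was above 83.3% of the telomeric genes, and Pdha1, with 3.82 ± 0.688%, above 62.5%. Around Pgk1 the shares were 1.48 ± 0.311% for Atrx, 3.76 ± 0.962% for Magt1, 1.11 ± 1.16% for Cox7b, 5.29 ± 0.571% for Atp7a and 0.387 ± 0.483% for Fndc3c1. Feeder fibroblast markers were present in the same libraries at 141, 130, 95.2 and 111 CPM, and 68.8% to 76.4% of their allelic fragments were Dom. The part of feeder RNA in the Dom fragments of Pgk1 and Pdha1 was not tested.

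**Figure D5:**
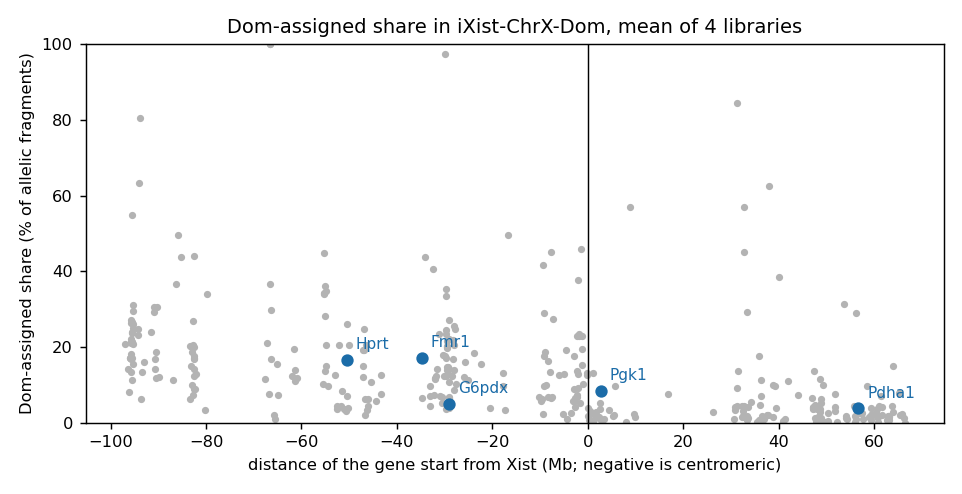
Share of allelic fragments assigned to Dom in iXist-ChrX-Dom (y axis, percent, mean of 4 libraries) against the distance of the gene start from Xist (x axis, Mb), for genes with at least 20 allelic fragments in every library, with the genes described here in blue. The share falls from a median of 14.9% on the centromeric side to 2.61% on the telomeric side, where Pgk1 stands at 8.48% and Pdha1 at 3.82%.

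Pgk1, G6pdx and Pdha1 have autosomal retrogene copies, Pgk2, G6pd2 and Pdha2, which are known from the male germline, where they stand in for the silenced X-linked genes. Pgk2 on chromosome 17 held 0 fragments in all 7 libraries, G6pd2 on chromosome 5 held 0 to 1 per library and Pdha2 on chromosome 3 held 3 to 8. The files keep uniquely aligned fragments, so exonic fragments that fit a gene and a copy equally well are in neither count.

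Few genes of the pathways around the 6 genes passed the test of total counts between the lines. Over all 15186 genes 1.72% were called lower in iXist-ChrX-Dom, and 17.4% had an unadjusted p under 0.05. Of 16 genes of purine salvage and synthesis, 2 were called lower and none higher (4 at unadjusted p under 0.05), with a median log2 difference of -0.02 beside 0.00 over all genes. These were Ppat (-0.49 ± 0.09, edgeR, adjusted p = 0.0297) and Paics (-0.63 ± 0.13, adjusted p = 0.0349), both enzymes of de novo purine synthesis on chromosome 5. Cast fragments were 67.8% to 69.9% of the allelic fragments of Ppat in iXist-ChrX-Cast and 51.6% to 52.6% in iXist-ChrX-Dom, and the median gene of chromosome 5 gave 63.6% and 46.1%, and the part of this imbalance of a whole chromosome in the difference was not tested. Of 17 glycolysis genes Hk2, the hexokinase that traps glucose in the cell, was lower (-0.46 ± 0.10, edgeR, adjusted p = 0.0365), and all 17 had negative differences (5 at unadjusted p under 0.05), with a median of -0.22. None of 7 pentose phosphate genes passed (1 at unadjusted p under 0.05), with a median of -0.22, none of 12 genes of the pyruvate dehydrogenase complex and its kinases (4 at unadjusted p under 0.05, median -0.06), none of 16 lysosomal genes (2, median 0.06) and none of 7 FMRP relatives and partners (1, median 0.03).

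Among 44 other X-linked enzyme and disease genes (10 at unadjusted p under 0.05) 1 was called between the lines, where 2.92% of all genes were called in either direction, Mtm1, the phosphoinositide phosphatase of myotubular myopathy, which was higher in iXist-ChrX-Dom (0.43 ± 0.10, edgeR, adjusted p = 0.046), and their median difference was -0.13. The allelic ratio tables held 25 of this list for iXist-ChrX-Dom, with a median ratio of 0.113 beside 0.148 over the table, and 40 for iXist-ChrX-Cast, with 0.149 beside 0.122. Both tables held 25 of them, and 7 of these passed the test, beside 33.2% of all 235 genes tested. Of the 7, 6 were lower in iXist-ChrX-Dom and 1 was higher, beside 45 higher of the 78 called over both tables. After the correction for the autosomal allele shift 36 of 106 called genes were higher, and the list itself was counted without that correction. The lower ones included Ids (0.0716 ± 0.0224 against 0.204 ± 0.00803, limma, adjusted p = 0.00233), the lysosomal enzyme of Hunter syndrome, together with Ebp, Ikbkg, Dkc1 and Dmd, and the higher one was Phka1 (0.103 ± 0.0348 against 0.0448 ± 0.0093, limma, adjusted p = 0.0309), a regulatory subunit of phosphorylase kinase.

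The 2 genes most like each of the 6 in log2 CPM over the 7 libraries were 9530036O11Rik and Ankar for Hprt, Rpl15 and Rfc4 for Pgk1, Stk31 and Gatad1 for G6pdx, Tdgf1 and Gtf2ird2 for Pdha1, Tbx21 and Bet1l for Gla, and Mfsd7b and Stag2 for Fmr1. Only Stag2 among them is X-linked. Likeness was ranked by Pearson correlation, which over 7 libraries of 2 lines passes 0.95 for 2 genes with Gla and for 191 with Fmr1, and all values share the library and its scaling.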

How the data were processed

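ChrRNA-seq libraries of 2 mESC lines were analysed (4 of iXist-ChrX-Dom, 3 of iXist-ChrX-Cast). The authors removed rRNA reads with Bowtie2 (2.3.2), aligned the rest with STAR (2.4.2a) to mm10 masked at strain SNPs, kept unique alignments, split them by allele with SNPsplit and counted fragments per gene over whole transcripts by strand with featureCounts (1.5.2), which gives the deposited counts of all, Cast-assigned and Dom-assigned fragments. The deposited allelic ratio is a fraction, Xi / (Xi + Xa), for X-linked genes that the authors kept for coverage and biallelic expression in uninduced cells. All 2181 ratios equalled the ratio of the deposited counts within 1e-09.

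Counts were filtered with filterByExpr, scaled by TMM factors and tested with edgeR (4.0.16, quasi-likelihood, R 4.3.3). SEs were taken from the F statistic. Allelic ratios were tested with limma (3.58.1) on log2((ratio + 0.01) / (1 - ratio + 0.01)) over the 235 genes of both tables. Tests were two-sided with Benjamini-Hochberg adjustment over all genes tested and a threshold of 0.05. These tests were checked on simulated counts. The simulated libraries were drawn independently, without the shared deviations of the sample sets given below, so the check does not cover these. Differences are iXist-ChrX-Dom minus iXist-ChrX-Cast, or Xi minus Xa. Wilson 95% intervals were computed within each library and cover counting error only. The fragments carry no molecular identifiers, so copies of a molecule cannot be told from separate molecules. The intervals may therefore be too narrow. The libraries held 14877384 to 24309806 fragments in genes, which leaves the Xi copy of G6pdx on 4 to 22 fragments. The study calls the libraries replicates or replicate experiments, the labels do not say whether they came from separate cultures, and p-values measure the spread between these libraries.

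Libraries with the same replicate number deviated together between the lines (correlations of deviations 0.378, 0.341 and 0.539 for numbers 1 to 3). So did replicates 1 and 2 as a set and replicates 3 and 4 as a set, whose files follow different naming schemes. Within a set, pairs of unlike number correlated at 0.378 to 0.581, so these values do not set the replicate number apart from the set. Fits with the replicate number as a block and with the set as a covariate were added. Other alternatives were DESeq2 (1.42.0), other scalings, filters, offsets and allele corrections, and leaving out each library.

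The members and gene lists were chosen with earlier results of these data known. Named genes are the 6 members, up to 4 genes of each list with the smallest adjusted p among those past the threshold in total counts, the nearest gene on either side in the ratio tables and the 2 most correlated genes. For the ratios of the X-linked list, called genes are named. Some genes that these rules pick are not reported here, and the genes around Pgk1 with a Dom share were chosen after their values were seen.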

Additional observations from a re-analysis of the deposited data

Results flagged for a closer look

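The Xi share of Hprt and of G6pdx differed between the lines by the test of the difference itself (limma on the log2-odds of the allelic ratio). For Hprt the log2-odds were 1.22 higher in iXist-ChrX-Dom (adjusted p = 0.00672), and all 4 iXist-ChrX-Dom libraries were above all 3 iXist-ChrX-Cast libraries. For G6pdx the value was -1.21 (adjusted p = 0.0432), with all 4 iXist-ChrX-Dom libraries below all 3 iXist-ChrX-Cast libraries on 4 to 22 Xi fragments per library. Over the 235 genes tested, 33.2% passed and 44.7% had no overlap between the lines. The Hprt call was lost with the replicate block, and the G6pdx call when any library but iXist-ChrX-Cast replicate 2 was left out. The Xi is the Dom allele in one line and the Cast allele in the other, so line, clone and allele cannot be told apart in either case. Of 19 groups of 4 values of these genes, none held a library far enough from the others to pass Dixon's 95% criterion, which chance alone passes in about 1 of 20 groups.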

How the results depend on the processing

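Of 303 recomputed differences of the 6 genes under the other settings, 279 kept their direction and their side of the threshold, 17 lost and 4 gained a call, and 3 turned, all of Gla in total counts (range -0.0242 to 0.12 when a library was left out, negative at -0.0242 without iXist-ChrX-Dom replicate 3 and at -0.0229 and -0.00569 without iXist-ChrX-Cast replicates 1 and 2). The cause of the changes below was not tested. In total counts 1 of the 6 genes was called, 3 with the sample set as covariate and 0 to 1 when a library was left out. Over all genes 443 were called, 1094 with DESeq2, 1794 with the replicate block, 2398 with the sample set as covariate, 1685 in replicates 1 and 2 alone and 18 (without iXist-ChrX-Cast replicate 2) to 1206 (without iXist-ChrX-Cast replicate 3) when a library was left out. Of the 443 genes 182 were higher in iXist-ChrX-Dom, and 146 of 471 with factors from balanced autosomes. Allele against allele, 5039 of 7853 called genes were higher on the Xi genome in iXist-ChrX-Dom and 2287 of 6911 in iXist-ChrX-Cast, autosomes included, and 3173 of 7307 and 3402 of 6390 after removing the allele shift. For Cast-assigned counts 1781 genes were called and 2790 with the sample set. For Dom-assigned counts 609 were called, 1213 with the block, 1420 with the set, 1078 in replicates 1 and 2 and 447 to 996 when a library was left out. All 5 members kept both allele calls in each of these fits. For the allelic ratio 2 of 3 members were called, and 1 with an offset of 0.001, on the untransformed ratio, with the replicate block, with the set, in replicates 1 and 2 alone, and in 6 of 7 fits without a library (range 1 to 2). The replicate block lost Hprt (1.14), the others lost G6pdx, and the block changed no other call of a member. All 89 recomputed levels and ratios of single genes moved by less than 1 SD. Depth limits G6pdx most, and Gla gave no ratio.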
